A study of Homo sapiens with 12 samples.

Results

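The genes described here encode the factors that start protein synthesis. They are the protein-coding genes whose symbol begins with EIF and a digit from 1 to 6, and 52 of the 17013 genes in the table met that rule. The annotation holds 56 such symbols, and EIF1AY, EIF2S3B, EIF4E1B and EIF4EBP3 had no row. The measured genes comprise 14 subunit genes of eIF3, among them EIF3J, and 38 genes of the other factors and their regulators.

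The mRNA-seq experiment was done in HCC1806, a human triple-negative breast cancer (TNBC) cell line, to follow the transcriptional part of the response to chemotherapy after loss of MLK4. Cells received a non-targeting control siRNA (siNT) or siRNA against MLK4 (siMLK4), a mixed-lineage kinase whose gene is MAP3K21. They were then kept in vehicle or exposed to 1 µM doxorubicin, a topoisomerase II poison, for 24 h. The control libraries are named vehicle here because their treatment label gives DMSO, and the study elsewhere describes them as vehicle or DMSO. The methods of the mRNA-seq call those cells untreated, and the sample titles mark them as time 0. If they were collected at time 0, doxorubicin and 24 h more of culture cannot be told apart in the comparisons below. Each of the 4 groups (siNT vehicle, siNT doxorubicin, siMLK4 vehicle and siMLK4 doxorubicin) held 3 libraries. All 12 libraries came from transfected cells of 1 line, and the siMLK4 groups share 1 reagent. The study's general transfection methods describe it as a pool of 4 siRNAs, and the use of that pool for the mRNA-seq is assumed here. The methods say that transfections were done in triplicate, and nothing says that the 3 libraries of a group came from experiments on separate days, so p-values measure the spread between these libraries. Library totals lay between 16759025 and 19302248 reads, with group medians of 18082509, 17275064, 18092154 and 18901864 in the order above. Basal epithelial markers were abundant (KRT5, 20900 ± 3210 normalized reads in siNT vehicle; SD, n = 3), and ESR1, the oestrogen receptor gene, stood at 92.7 ± 18.0. PGR, the progesterone receptor gene, was at 0 in all vehicle libraries and at 13.3 ± 4.75 in siNT doxorubicin. KRT5, KRT6A, KRT14, EGFR and TP63 fell with doxorubicin in both siRNA groups at the study thresholds given below, while KRT17 did not pass. Between siMLK4 and siNT, KRT6A, KRT14 and KRT17 were lower in both treatments at adjusted p under 0.05, KRT5 was higher in vehicle (0.64 ± 0.15 on the log2 scale; limma adjusted p = 0.0074) and -0.32 ± 0.15 with doxorubicin, and EGFR and TP63 had no call. The part of these markers in the differences below was not tested, and in bulk RNA fewer cells of a type and less RNA per cell cannot be told apart. Of the markers of other cell types, COL1A2, DCN, CD3E, CD68, PECAM1 and CDH5 had no row, PTPRC stood at 5.48 ± 2.83 and VWF at 25.1 ± 11.2 in siNT vehicle, and COL1A1 at 286 ± 29.8.

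Initiation in human cells proceeds through a series of complexes. eIF2 carries the initiator tRNA to the small ribosomal subunit together with eIF1, eIF1A, eIF3 and eIF5, and eIF2B recharges eIF2 with GTP. eIF4F binds the mRNA cap and unwinds the leader, the eIF4E-binding proteins keep its cap-binding subunit eIF4E from the scaffold eIF4G, and eIF5B joins the large subunit. eIF3 is the largest of these factors, a scaffold on the small subunit, and EIF3J encodes a loosely attached subunit that also takes part in ribosome recycling.

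The sequences of the 4 siRNAs in that pool are shown because, if it was the reagent used, the siMLK4 groups differ from siNT by them. Each line gives the target strand of 19 bases, 5′ to 3′, with capitals marking the 7 bases that pair with the seed (bases 2 to 8) of the antisense strand.
siMLK4_1: ggaaagaugcuCAGAGAGa
siMLK4_2: aggagaagcccAAGGUAAa
siMLK4_3: agaagaaacgaGAGGGAAu
siMLK4_4: agaacagauugCAAAGAAa
All 19 bases of each lie once in the coding sequence of the canonical MAP3K21 transcript on the plus strand (GRCh38, GENCODE release 44). siMLK4_1 lies in exon 9 at chr1:233379030-233379048, siMLK4_2 in exon 5 at chr1:233362204-233362222, siMLK4_3 in exon 9 at chr1:233379276-233379294 and siMLK4_4 in exon 7 at chr1:233376047-233376065.

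MAP3K21 was checked first. In siNT vehicle it had 553, 670 and 674 normalized reads (reads divided by the library's size factor), and in siNT doxorubicin 758, 856 and 772. In siMLK4 vehicle it had 103, 94.7 and 88.7, and in siMLK4 doxorubicin 113, 138 and 94.4. Every siMLK4 library was below every siNT library. The log2 fold change between siMLK4 and siNT was -2.24 ± 0.12 (SE) in vehicle and -2.37 ± 0.12 with doxorubicin (limma adjusted p = 9.7e-08 and 1.1e-07).

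EIF3J (ENSG00000104131) lies on the plus strand at chr15:44537125-44563029. Its transcript was the member that differed most between siMLK4 and siNT, in both treatments. The siNT vehicle libraries had 11746, 11392 and 9921 normalized reads and the siNT doxorubicin libraries 9063, 7875 and 9601. The siMLK4 vehicle libraries had 2066, 2234 and 2476 and the siMLK4 doxorubicin libraries 1599, 1498 and 1857. All 6 siMLK4 libraries were below all 6 siNT libraries, with no overlap. The log2 fold change between siMLK4 and siNT was -2.26 ± 0.12 in vehicle (95% interval -2.52 to -2.00; limma adjusted p = 9.7e-08) and -2.38 ± 0.12 with doxorubicin (-2.64 to -2.13; adjusted p = 1.1e-07). EIF3J ranked 14th from the lowest fold change of 17013 genes in vehicle and 3rd with doxorubicin, and the next lowest member stood at -0.76 in both. From the means of normalized reads, EIF3J in siMLK4 was at 20.5% of its siNT level in vehicle and 18.7% with doxorubicin, and MAP3K21 at 15.1 and 14.5%. Fold changes on the deposited scale are understated for genes with few reads such as MAP3K21. EIF3J was singled out with earlier results of these data known, so its rank is a description.

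The other 13 eIF3 subunit genes did not follow EIF3J in size. In vehicle 3 of them were lower in siMLK4 at adjusted p under 0.05 and none higher. Of all genes 13.0% were lower and 12.7% higher. With doxorubicin 7 of the 13 were lower and none higher, where 12.1% of all genes were lower and 12.7% higher (limma). The second count rested on single libraries: it was 1 without siNT doxorubicin replicate 3, siMLK4 doxorubicin replicate 1 or siMLK4 doxorubicin replicate 2, 2 without siNT doxorubicin replicate 1 and 3 without siNT doxorubicin replicate 2. The replicate number as a block took EIF3H (limma adjusted p = 0.063) and EIF3A out of the second count. The counts were 1 in vehicle and 2 with doxorubicin when libraries were scaled to their totals. Their log2 fold changes ran from -0.55 to 0.10 in vehicle, with a median of -0.28, and from -0.76 to 0.06 with doxorubicin, with a median of -0.34. EIF3A and EIF3B, which encode core subunits, and EIF3D, whose product can bind the cap, were lower in both. The calls were narrow. For EIF3A the difference with doxorubicin was -0.34 ± 0.12 (limma adjusted p = 0.047, and 0.058 with the replicate number as a block), and leaving out any of 7 single libraries lost it, as did any of 6 in vehicle. For EIF3B and EIF3D any of 5 lost the call with doxorubicin. EIF3B, the lowest of the 13 in vehicle, had log2 fold changes of -0.55 ± 0.12 and -0.43 ± 0.12 (limma adjusted p = 0.005 and 0.021). With that scaling EIF3A and EIF3D had no call in either treatment and EIF3B none with doxorubicin (-0.34, adjusted p = 0.053). EIF3L stood at 0.07 ± 0.14 and 0.06 ± 0.14, with siMLK4 and siNT libraries overlapping in both treatments. Its counting is uncertain, since 58.5% of its exon bases overlap another gene on the same strand. EIF3F stood at 0.10 ± 0.17 and -0.03 ± 0.17, and its libraries also overlapped.

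**Figure D1:**
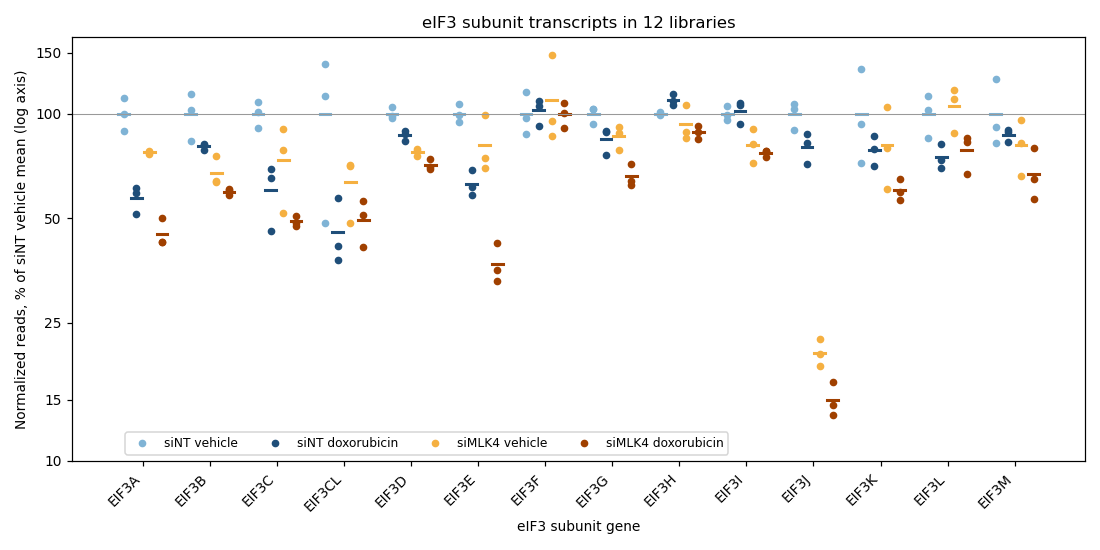
Normalized reads of the 14 eIF3 subunit genes in each of the 12 libraries, as a percentage of the gene's mean in siNT vehicle, on a log axis (points are libraries, short bars group means, colours the 4 groups). The siMLK4 points of EIF3J lie between the marks at 10 and 25% and below every point of the other subunits.

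EIF3J also moved within the order of eIF3 subunits. Per kilobase of its canonical transcript, EIF3J stood at 1.66 ± 0.11 times the median of 11 other subunits in siNT vehicle and 1.48 ± 0.11 times in siNT doxorubicin (SD, n = 3). The ratio was 0.39 ± 0.01 in siMLK4 vehicle and 0.35 ± 0.03 in siMLK4 doxorubicin. Over single libraries it lay between 1.37 and 1.76 in siNT and between 0.33 and 0.40 in siMLK4, so the siRNA groups did not overlap, while vehicle and doxorubicin libraries overlapped within siNT. Among these 12 genes EIF3J ranked 4 or 5 from the top in every siNT library and 9 or 10 in every siMLK4 library. EIF3C and EIF3CL were left out of the ratio because 45.2 and 97.1% of their stretches of 50 bases also occur in other genes, mostly in each other. For EIF3J that share was 0.3%, from the pseudogene EIF3JP2. EIF3L was kept among the 11, although the share for it was 36.0%.

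The gene next to EIF3J was not called lower in siMLK4. EIF3J-DT (ENSG00000179523), a long non-coding RNA gene on the minus strand at chr15:44527257-44537046 whose own start lies beside the EIF3J start, was looked up after its values were seen. It had 282, 239 and 309 normalized reads in siNT vehicle, 477, 376 and 433 in siNT doxorubicin, 337, 331 and 432 in siMLK4 vehicle and 382, 394 and 375 in siMLK4 doxorubicin. Its log2 fold change between siMLK4 and siNT was 0.35 ± 0.13 in vehicle and -0.14 ± 0.13 with doxorubicin, neither past adjusted p of 0.05 (limma, 0.056 and 0.46). Its 95% intervals, 0.08 to 0.62 in vehicle and -0.41 to 0.13 with doxorubicin, lay above those of EIF3J.

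The 5 genes whose values followed EIF3J most closely over the 12 libraries, of 13901 compared, were ETFA (Pearson r = 0.993), SNX3 (0.991), SELENOT (0.989), SRRT (0.989) and ACTR3 (0.987). These points fall into the 4 groups, so r mostly describes the difference between siRNAs. All 5 were lower in siMLK4, by log2 fold changes from -0.88 to -1.47 in vehicle and from -1.12 to -1.59 with doxorubicin, and none fell as far as EIF3J.

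The 3′ untranslated region of EIF3J, 1654 bases long, holds 3 matches to the 7 seed-pairing bases of the siRNAs. They are shown on the plus strand of chromosome 15 (GRCh38), in windows of 19 bases aligned with the target strand, with capitals for the matching 7 bases.
siMLK4_3, chr15:44561312-44561318: aatgtgcaaatGAGGGAAc
siMLK4_2, chr15:44561740-44561746: tgaagctaaagAAGGTAAa
siMLK4_3, chr15:44561848-44561854: ttcaggtggggGAGGGAAa
Of the 19 bases, 9, 11 and 10 are the same as in the siRNA. The longest unbroken match of any of the 4 target strands in the EIF3J transcript was 8 bases, and 52.6 to 61.9% of 13611 protein-coding genes had a match at least that long. Such matches were common. The letters GAGGGAA (siMLK4_3) occur in the 3′ untranslated regions of 17.3% of 13583 protein-coding genes and of 14 of the 52 members (26.9%). AAGGTAA (siMLK4_2) occurs in 11.4 and 11.5%, CAGAGAG (siMLK4_1) in 17.6 and 17.3%, and CAAAGAA (siMLK4_4) in 20.4 and 15.4%. Any of the 4 occurs in 44.3% of genes and in 26 members.

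Members were grouped by their number of matches, with no test of the differences between groups, whose 3′ untranslated regions also differed in length. The 26 members without a match had median log2 fold changes of -0.15 in vehicle and -0.17 with doxorubicin, with a median region of 476 bases. The 18 with 1 or 2 matches stood at -0.29 and -0.32 (1850 bases), and the 7 with 3 or more besides EIF3J at -0.28 and -0.40 (3973 bases). Over all protein-coding genes the medians were 0.01 and 0.04 without a match and -0.07 and -0.04 for the 1362 genes with 3 or more. Split by siRNA, the 5 members besides EIF3J with a siMLK4_2 match stood at -0.12 in vehicle and -0.05 with doxorubicin, above the 46 without one (-0.25 and -0.28). The 9 with a siMLK4_1 match stood at -0.28 and -0.33, beside -0.22 and -0.24 in the 42 without, and the 8 with a siMLK4_4 match at -0.29 and -0.37, beside -0.21 and -0.21 in the 43 without. The 13 with a siMLK4_3 match stood at -0.21 and -0.39, beside -0.24 and -0.24 in the 38 without. Over all protein-coding genes the share lower at the study thresholds was 5.72% in vehicle and 5.47% with doxorubicin of genes with a siMLK4_2 match, beside 3.46 and 2.94% without, and the medians were -0.09 and -0.07, beside 0.00 and 0.03. For siMLK4_3 the shares were 6.94 and 6.60%, beside 3.04 and 2.53% without. For siMLK4_1 they were 4.70 and 4.11%, beside 3.51 and 3.05%, and for siMLK4_4 4.40 and 4.22%, beside 3.54 and 2.98%. The siMLK4_1 medians were -0.02 and 0.01 with a match and -0.01 and 0.02 without. Those of siMLK4_3 were -0.07 and -0.04, beside 0.00 and 0.03, and of siMLK4_4 -0.05 and -0.02, beside -0.01 and 0.03. With doxorubicin 89 of 2385 genes with a siMLK4_1 match were higher and 98 lower, beside 339 and 341 of 11198 without. For siMLK4_2, siMLK4_3 and siMLK4_4, 28 of 1555, 66 of 2348 and 74 of 2772 genes with a match were higher. Without a match 400 of 12028, 362 of 11235 and 354 of 10811 were higher. In vehicle 71, 30, 53 and 80 genes with a match were higher, from siMLK4_1 to siMLK4_4, beside 312, 353, 330 and 303 without. Genes with a match to any 1 of the 4 had median regions of 2909 to 3480 bases, beside 1000 to 1120 without. EIF2AK2, the only other member with matches to both siMLK4_2 and siMLK4_3, stood at -0.07 ± 0.15 and 0.02 ± 0.15. Among the 480 protein-coding genes with both, 6.46% were lower at the study thresholds in each treatment, beside 2.52% in vehicle and 2.10% with doxorubicin of genes with no match and 6.31 and 6.02% of genes with 3 or more. A match of 7 letters is a description of the sequence, and its part in any difference was not tested.

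Across all 52 members, siMLK4 and siNT were set side by side at 2 thresholds: those of the study (adjusted p below 0.01 together with a log2 fold change beyond 0.75 either way) and adjusted p under 0.05 alone. At the study thresholds 2 members were lower and none higher in vehicle, where 3.14% of all genes were lower and 2.51% higher. With doxorubicin again 2 were lower and none higher, where 2.93% of all genes were lower and 2.66% higher. They were EIF3J and EIF5 in vehicle and EIF3J and EIF3E with doxorubicin. At adjusted p under 0.05, 16 members were lower and none higher in vehicle, where 13.0% of all genes were lower and 12.7% higher. With doxorubicin 17 were lower and none higher, where 12.1% of all genes were lower and 12.7% higher (limma). The median over members was -0.24 in vehicle and -0.28 with doxorubicin, against 0.01 and 0.02 over all genes and -0.10 and -0.05 over the 6898 genes with at least 500 reads. Scaled to library totals, which put the median of all genes at 0.107 in vehicle and 0.086 with doxorubicin, 8 members were lower and 1 higher in vehicle and 10 lower and 1 higher with doxorubicin. Shares of all genes called with that scaling are not given, so counts with library totals, here and elsewhere, lack that background. In 19 members every siMLK4 library was below every siNT library in vehicle, and in 1 every library was above, where 18.0 and 19.7% of all genes did so. With doxorubicin the counts were 24 and 2, where 21.1 and 22.8% of all genes did so.

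Of the 16 members lower in vehicle and the 17 lower with doxorubicin, 12 were the same: EIF1AX, EIF2A, EIF3A, EIF3B, EIF3D, EIF3J, EIF4B, EIF4H, EIF5, EIF5A, EIF5A2 and EIF5B. No member was higher in both, and of all genes 7.60% were lower and 5.83% higher in both treatments. This shared count was 6 when replicate 3 of siNT doxorubicin or replicate 1 or 2 of siMLK4 doxorubicin was left out, 8 without replicate 1 or 2 of siNT doxorubicin, and 24 with the slope of each library on transcript length as a covariate. EIF1AX, EIF3J, EIF4B, EIF5 and EIF5A2 were called lower in both treatments under every alternative run, and these were the 5 left when libraries were scaled to their totals. Of the 6 genes of eIF5, eIF5A, eIF5B and eIF6, 5 were lower in each treatment, where 13.0 and 12.1% of all genes were, with medians of -0.54 and -0.47, and 4 in each when scaled to library totals. With doxorubicin the count was 3 when replicate 1 or 3 of siNT doxorubicin, or replicate 1 or 2 of siMLK4 doxorubicin, was left out. The 4 eIF2 kinase genes, whose products phosphorylate eIF2 under stress, had no call in either treatment and log2 fold changes between -0.15 and 0.18. At adjusted p under 0.05, 13.0 and 12.1% of all genes were lower and 12.7% higher in each treatment (limma).

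**Figure D2:**
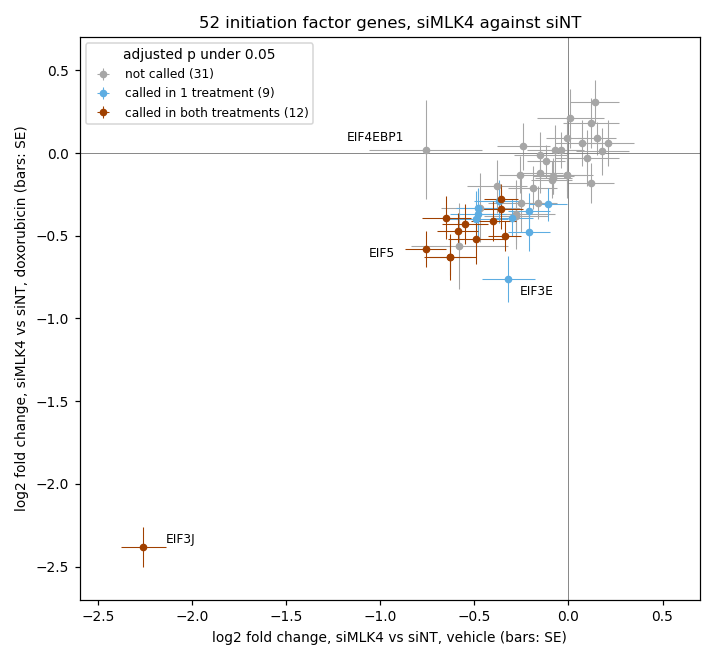
Log2 fold change between siMLK4 and siNT of each of the 52 genes in vehicle (horizontal axis) and with doxorubicin (vertical axis), with SE bars; colours give whether limma adjusted p was under 0.05 in neither, 1 or both treatments (31, 9 and 12 genes). EIF3J stands alone at -2.26 and -2.38, and the other 51 genes lie between -0.76 and 0.31.

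EIF5 encodes the GTPase-activating protein that triggers GTP hydrolysis by eIF2 at the start codon. It had 13772, 12889 and 12182 normalized reads in siNT vehicle and 6636, 7876 and 8527 in siMLK4 vehicle. With doxorubicin it had 11976, 11450 and 12124 in siNT and 8048, 7569 and 8179 in siMLK4. The siRNA groups did not overlap in either treatment. Its log2 fold change was -0.76 ± 0.11 in vehicle (limma adjusted p = 0.00025) and -0.58 ± 0.11 with doxorubicin (0.0019). The first stood just past the fold threshold of the study. Scaled to library totals it was -0.61, and without siMLK4 vehicle replicate 1 it was -0.65. Its 3′ untranslated region holds 3 GAGGGAA matches. EIF3J, EIF4B, EIF1AX and EIF5A2 were likewise lower in both treatments under every alternative run. Their regions hold 3, 2, 1 and 0 matches to the 4 siRNAs, that of EIF5A2 over 4942 bases.

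EIF5A encodes a factor that helps ribosomes through difficult peptide bonds, and was the most abundant member per kilobase (13504 normalized reads per kb over all libraries, against 2398 for EIF3J). It had 26648, 24800 and 23404 normalized reads in siNT vehicle, 16395, 13002 and 17456 in siNT doxorubicin, 14363, 16011 and 17263 in siMLK4 vehicle and 11815, 10592 and 13084 in siMLK4 doxorubicin. The siNT vehicle libraries were above all others. The log2 fold change between siMLK4 and siNT was -0.65 ± 0.13 in vehicle and -0.39 ± 0.13 with doxorubicin, where the libraries overlapped (limma adjusted p = 0.0028 and 0.044). Leaving out any of 6 single libraries lost the second call, with values between -0.39 and -0.31, the latter without siNT doxorubicin replicate 3.

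EIF1AX, on the X chromosome, encodes eIF1A, which binds the decoding site of the small subunit. It had 4697, 4447 and 4044 normalized reads in siNT vehicle, 2491, 2524 and 3223 in siNT doxorubicin, 2592, 2961 and 2885 in siMLK4 vehicle and 1680, 1465 and 2163 in siMLK4 doxorubicin. Both siRNA differences and both doxorubicin responses were free of overlap. The log2 fold change between siMLK4 and siNT was -0.63 ± 0.14 in vehicle and -0.63 ± 0.14 with doxorubicin (limma adjusted p = 0.0048 and 0.0053).

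Doxorubicin moved members in both directions, and the balance between them depended on the scaling. In siNT cells 2 members rose and 5 fell at the study thresholds, where 12.1% of all genes rose and 10.6% fell. In siMLK4 cells also 2 rose and 5 fell, where 12.6 and 10.6% did. At adjusted p under 0.05, 6 rose and 21 fell in siNT (29.6 and 27.7% of all genes) and 6 rose and 22 fell in siMLK4 (30.2 and 27.7%; limma). The medians were -0.22 and -0.27, against 0.00 and 0.02 over all genes and -0.14 and -0.07 over genes with at least 500 reads. Scaled to library totals, which put the median of all genes at 0.18 in siNT and 0.16 in siMLK4, 10 rose and 11 fell in siNT and 9 rose and 9 fell in siMLK4. The libraries of 25 members were all lower and of 7 all higher with doxorubicin in siNT, where 30.4 and 32.0% of all genes did so, and the counts in siMLK4 were again 25 and 7 (30.5 and 33.4%). At adjusted p under 0.05, 24 members were called in both siRNA groups, of 27 and 28, and all 24 kept their direction, 5 up and 19 down, where 24.0% of all genes rose in both and 21.5% fell in both. With library totals 8 were called up and 6 down in both siRNA groups. The shares of all genes above do not apply to that scaling, for which none are given.

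**Figure D3:**
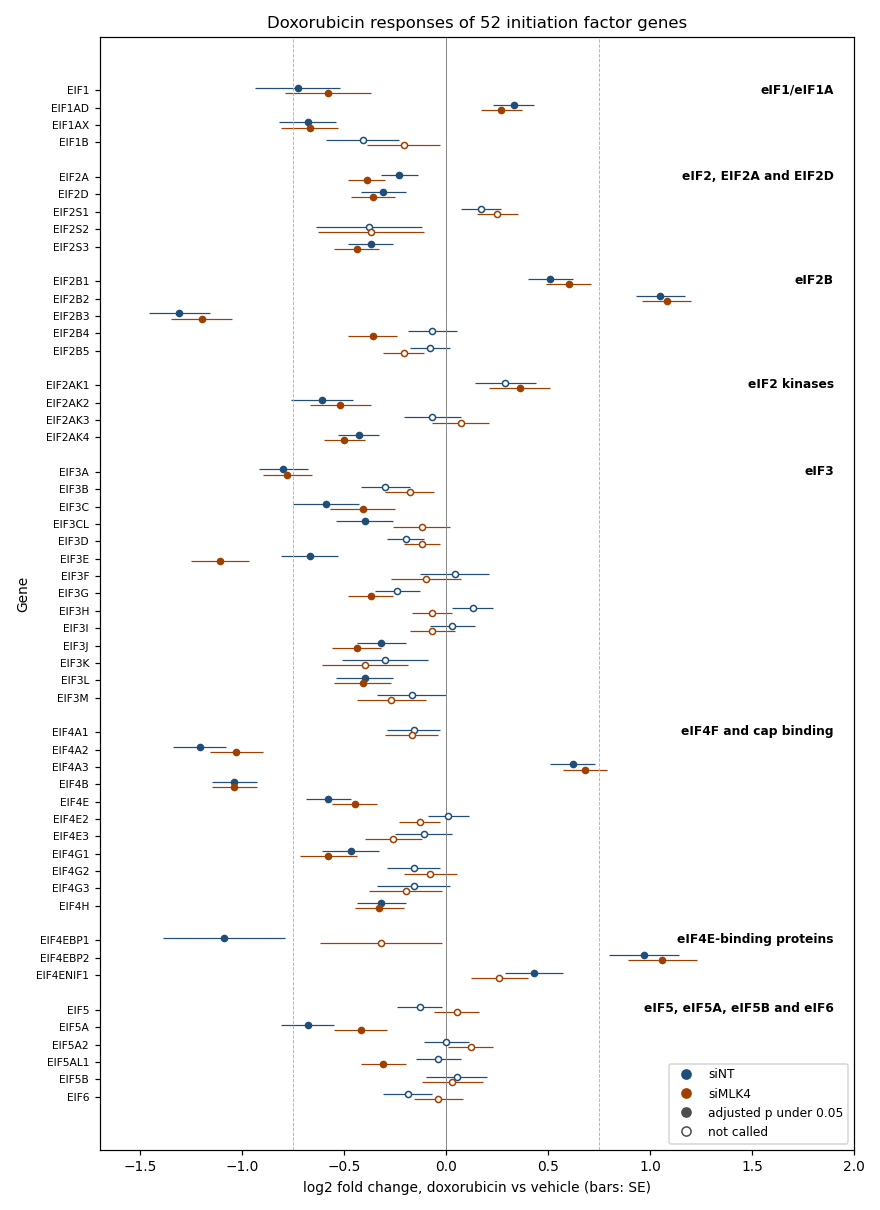
Log2 fold change with doxorubicin of the 52 genes in siNT (blue) and siMLK4 (brown) cells, with SE bars, ordered by complex; filled points had a limma adjusted p under 0.05 and dashed lines mark the fold threshold of 0.75. EIF2B2 and EIF4EBP2 lie to the right of it and EIF2B3, EIF3A, EIF4A2 and EIF4B to the left in both.

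The eIF2B genes, whose products exchange the GDP of eIF2 for GTP, split. EIF2B2, the beta subunit, had 878, 709 and 725 normalized reads in siNT vehicle and 1773, 1665 and 1499 in siNT doxorubicin, then 627, 725 and 705 in siMLK4 vehicle and 1520, 1687 and 1326 in siMLK4 doxorubicin. It was higher in every doxorubicin library, with log2 fold changes of 1.05 ± 0.12 and 1.08 ± 0.12 (limma adjusted p = 6.4e-06 and 5e-06). EIF2B3, the gamma subunit, had 1155, 1003 and 775 in siNT vehicle and 355, 334 and 390 in siNT doxorubicin, then 593, 717 and 736 in siMLK4 vehicle and 251, 235 and 321 in siMLK4 doxorubicin. It was lower in every doxorubicin library, with log2 fold changes of -1.31 ± 0.15 and -1.20 ± 0.15 (limma adjusted p = 5.7e-06 and 1.2e-05). EIF2B1, the alpha subunit, rose by 0.51 ± 0.11 and 0.60 ± 0.11. EIF2B4, the delta subunit, stood at -0.07 ± 0.12 in siNT and fell in siMLK4 (-0.36 ± 0.12; limma adjusted p = 0.022), a call lost with library totals (-0.18) and when replicate 2 or 3 of siMLK4 vehicle or replicate 2 of siMLK4 doxorubicin was left out (-0.36, -0.30 and -0.28). The difference of its responses was not called (adjusted p = 0.49). EIF2B5, the catalytic epsilon subunit, stood at -0.08 ± 0.10 and -0.21 ± 0.10, neither called.

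Of the 3 eIF2 subunit genes, EIF2S3 fell in each siRNA group and none rose (limma adjusted p under 0.05). Of all genes 27.7% fell in each group, while 29.6% rose in siNT and 30.2% in siMLK4. EIF2S1, the alpha subunit, stood at 0.17 ± 0.10 and 0.25 ± 0.10 and EIF2S2, the beta subunit, at -0.38 ± 0.26 and -0.37 ± 0.26, none called. EIF2A and EIF2D, which encode separate factors that can deliver tRNA without eIF2, fell in each. Of these 5 genes, none fell in siNT and 1 in siMLK4 with library totals, and EIF2S1 was called higher in both (0.41 and 0.43). With upper-quartile scaling none fell and 1 rose in siNT, and 1 fell there when replicate 2 or 3 of siNT vehicle, or replicate 1 or 2 of siNT doxorubicin, was left out. EIF2S3, the gamma subunit that binds GTP and the initiator tRNA, had 6064, 5513 and 5972 normalized reads in siNT vehicle, 4276, 4285 and 4975 in siNT doxorubicin, 5343, 5521 and 5575 in siMLK4 vehicle and 3891, 3685 and 4538 in siMLK4 doxorubicin. The doxorubicin libraries were lower without overlap, with log2 fold changes of -0.37 ± 0.11 and -0.44 ± 0.11 (limma adjusted p = 0.0083 and 0.0029). Scaled to library totals the first was -0.13 and was not called. Of the eIF2 kinases, EIF2AK4 (GCN2, which senses amino acid shortage) had 5050, 5597 and 5853 normalized reads in siNT vehicle, 3653, 4334 and 4241 in siNT doxorubicin, 5442, 5240 and 4933 in siMLK4 vehicle and 3566, 3646 and 3772 in siMLK4 doxorubicin. It fell by 0.43 ± 0.10 and 0.50 ± 0.10 on the log2 scale (limma adjusted p = 0.0026 and 0.00083), and in siNT by 0.19, not called, when scaled to library totals. EIF2AK2 (PKR, activated by double-stranded RNA) also fell, by 0.61 ± 0.15 and 0.52 ± 0.15, the second not called when scaled to library totals (-0.34), while EIF2AK3 (PERK, the kinase of the endoplasmic reticulum) stood at -0.07 ± 0.14 and 0.07 ± 0.14. EIF2AK1 (HRI, the haem-regulated kinase) stood at 0.29 ± 0.15 in siNT, not called, and 0.36 ± 0.15 in siMLK4 (limma adjusted p = 0.098 and 0.048). The call in siMLK4 was lost with the replicate number as a block (adjusted p = 0.056) and without any of 8 single libraries (0.25 to 0.39), and with library totals it was also called higher in siNT (0.53).

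In eIF3, 6 of 14 genes fell with doxorubicin in each siRNA group and none rose (limma adjusted p under 0.05). Of all genes 27.7% fell in each group, while 29.6% rose in siNT and 30.2% in siMLK4. When scaled to library totals, 3 eIF3 genes fell and 2 rose in siNT (EIF3H, 0.37, and EIF3I, 0.26). In siMLK4 2 fell and none rose. The count in siNT was 3 when replicate 2 of siNT vehicle or replicate 1 of siNT doxorubicin was left out. EIF3A, the largest subunit, had 21721, 17401 and 19503 normalized reads in siNT vehicle, 10067, 11569 and 11952 in siNT doxorubicin, 15293, 15112 and 15008 in siMLK4 vehicle and 8344, 8358 and 9780 in siMLK4 doxorubicin. The 4 groups did not overlap. It fell by 0.80 ± 0.12 and 0.78 ± 0.12 on the log2 scale with doxorubicin (limma adjusted p = 5.7e-05 and 7.1e-05), and by 0.56 and 0.59 when scaled to library totals, which is short of the fold threshold. Leaving out single libraries brought it to -0.72 in siNT (without vehicle or doxorubicin replicate 1) and to -0.74 in siMLK4 (without doxorubicin replicate 1 or 2). EIF3J itself fell by 0.32 ± 0.12 in siNT (95% interval -0.57 to -0.06; limma adjusted p = 0.036) and by 0.44 ± 0.12 in siMLK4 (-0.70 to -0.18; 0.0061). Scaled to library totals these were -0.08 and -0.26, neither called, and without siNT doxorubicin replicate 2 the first was -0.24.

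EIF3E, another eIF3 subunit gene, fell with doxorubicin in both siRNA groups. It had 14554, 13539 and 12926 normalized reads in siNT vehicle, 8427, 7997 and 9386 in siNT doxorubicin, 9567, 10188 and 13514 in siMLK4 vehicle and 4859, 4522 and 5810 in siMLK4 doxorubicin. The siMLK4 doxorubicin libraries were below all others, and siMLK4 vehicle replicate 3 lay among the siNT vehicle libraries. It fell with doxorubicin by 0.67 ± 0.14 in siNT and by 1.11 ± 0.14 in siMLK4 (limma adjusted p = 0.001 and 1.4e-05). Between siMLK4 and siNT it stood at -0.32 ± 0.14 in vehicle and -0.76 ± 0.14 with doxorubicin (0.11 and 0.0013). Without siNT doxorubicin replicate 3 the last was -0.70. The test of the difference between the doxorubicin responses gave -0.45 ± 0.20, which did not pass after adjustment (limma adjusted p = 0.31, unadjusted 0.039).

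Of the 11 genes of eIF4F and cap binding, 5 fell and 1 rose in each siRNA group (limma adjusted p under 0.05, where 27.7% of all genes fell in each and 29.6 and 30.2% rose). The counts with library totals were 3 and 1 in each, and 3 fell in siNT without siNT vehicle replicate 2. EIF4A2, a helicase subunit, had 10446, 7900 and 8128 normalized reads in siNT vehicle, 3820, 3604 and 3862 in siNT doxorubicin, 8821, 9204 and 10973 in siMLK4 vehicle and 4624, 4371 and 5086 in siMLK4 doxorubicin. It fell by 1.21 ± 0.13 and 1.03 ± 0.13 on the log2 scale (limma adjusted p = 3e-06 and 1.2e-05). EIF4A3, the related helicase of the exon junction complex, rose by 0.62 ± 0.11 and 0.68 ± 0.11. EIF4B, which stimulates the helicase, had 17383, 14228 and 15526 in siNT vehicle, 7078, 7860 and 7932 in siNT doxorubicin, 9743, 9295 and 11436 in siMLK4 vehicle and 4860, 4822 and 5043 in siMLK4 doxorubicin. The 4 groups of EIF4B did not overlap. It fell by 1.04 ± 0.11 in both siRNA groups, and was lower in siMLK4 by 0.63 ± 0.11 in both treatments (limma adjusted p = 0.0012 in each). EIF4A1 cannot be separated from its neighbour, since all of its exon bases overlap another gene on the same strand and it had 46.0 normalized reads on average.

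EIF4EBP1 and EIF4EBP2, whose products when unphosphorylated hold eIF4E and keep it from eIF4G, moved apart in siNT. With EIF4ENIF1, the other gene grouped with them, 2 rose and 1 fell there at adjusted p under 0.05 (limma). Of all genes 29.6% rose and 27.7% fell there. EIF4ENIF1 stood at 0.43 ± 0.14 in siNT (limma adjusted p = 0.015) and at 0.26 ± 0.14 in siMLK4, not called. Leaving out either of 2 single libraries lost the siNT call (0.37), and leaving out 1 gave a call in siMLK4 (0.39). EIF4EBP2 had 2326, 3066 and 3079 normalized reads in siNT vehicle, 5400, 6024 and 5168 in siNT doxorubicin, 2359, 2139 and 1529 in siMLK4 vehicle and 4222, 4961 and 3487 in siMLK4 doxorubicin. It rose by 0.97 ± 0.17 and 1.06 ± 0.17 on the log2 scale, without overlap (limma adjusted p = 0.00025 and 0.00011). EIF4EBP1 had 1462, 662 and 908 in siNT vehicle, 443, 362 and 471 in siNT doxorubicin, 397, 409 and 994 in siMLK4 vehicle and 449, 347 and 506 in siMLK4 doxorubicin. The vehicle libraries spread widely, and siMLK4 vehicle replicate 3 was apart from the other two. In siNT it fell by 1.09 ± 0.30 with doxorubicin (limma adjusted p = 0.0063), and by 0.80 without siNT vehicle replicate 1. Leaving out any of 5 single libraries lost its call at the study thresholds. In siMLK4 it stood at -0.32 ± 0.30, with overlapping libraries, and the difference of the 2 responses was 0.77 ± 0.42 (limma adjusted p = 0.44). With the slope of each library on transcript length as a covariate that difference was 0.82 ± 0.24 and was called (adjusted p = 0.048).

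**Figure D4:**
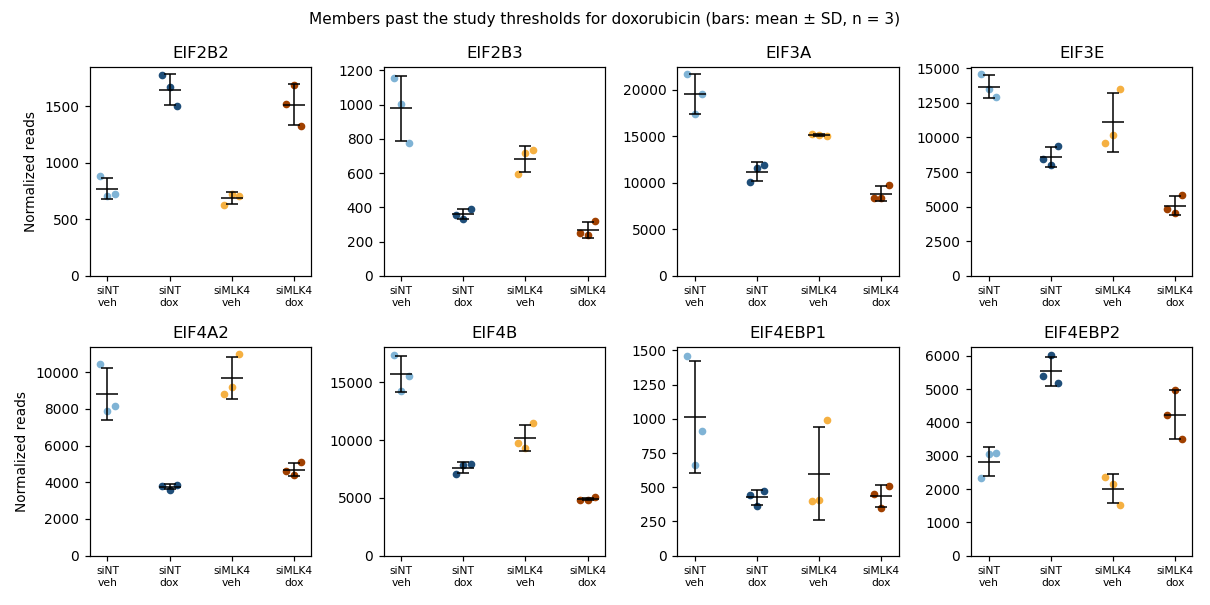
Normalized reads of the 8 genes past the study thresholds for doxorubicin in either siRNA group, with each library as a point and the mean ± SD (n = 3) as bars, on axes that start at 0. EIF2B2 and EIF4EBP2 are higher in all doxorubicin libraries, and EIF4EBP1 overlaps in siMLK4.

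Without a covariate, no member's doxorubicin response was called different between siMLK4 and siNT cells. The interaction test called 0 of 52 at either threshold, beside 0.276% of all genes at the study thresholds and 1.20% at adjusted p under 0.05, and limma-voom on recovered reads also called 0. At an unadjusted p under 0.05 there was 1, EIF3E. For EIF3J the interaction was -0.12 ± 0.17 (95% interval -0.49 to 0.24; limma adjusted p = 0.81). The interval leaves room for a difference of either sign.

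Other translation genes were read from a list of 40, of which 38 had rows. With doxorubicin 1 rose and 10 fell at the study thresholds in siNT, and 2 rose and 8 fell in siMLK4, where 12.1 and 12.6% of all genes rose and 10.6% fell in each. With library totals 5 fell in siNT and 7 in siMLK4, without a share of all genes at that scaling. The genes that rose in siMLK4 were PAIP2B and PPP1R15A, and the call of PPP1R15A (0.86 ± 0.24) was lost with the replicate number as a block (limma adjusted p = 0.011) and when any 1 of the 3 siMLK4 doxorubicin libraries or replicate 1 or 2 of siMLK4 vehicle was left out, with values down to 0.68. Of the elongation factors 6 of 7 fell in each siRNA group at adjusted p under 0.05 (limma), where 27.7% of all genes fell, with medians of -1.01 and -0.97, and 4 and 5 fell when scaled to library totals. EEF2, which drives translocation, fell by 1.22 ± 0.11 and 1.15 ± 0.11 on the log2 scale, and EEF1A1, which delivers aminoacyl-tRNA, by 1.01 ± 0.17 and 0.99 ± 0.17. PAIP2B, an inhibitor of poly(A)-binding protein, rose by 2.11 ± 0.21 and 2.43 ± 0.21. Between siMLK4 and siNT, 2 of the 38 were lower at the study thresholds in vehicle, where 3.14% of all genes were (EEF2, -0.99 ± 0.11, and PPP1R15A, the stress-induced subunit of the eIF2 phosphatase, -1.21 ± 0.24). The call of PPP1R15A was lost when only the groups compared were fitted (limma adjusted p = 0.037). With doxorubicin EEF2 was lower (-0.92 ± 0.11) and PAIP2B higher (1.08 ± 0.21), where 2.93% of all genes were lower and 2.66% higher. The call of PAIP2B was lost when replicate 3 of siNT doxorubicin (0.92) or replicate 1 or 2 of siMLK4 doxorubicin (1.01 and 0.86) was left out.

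Libraries also differed in a way the groups do not give. The slope of a library's values on log2 transcript length, over 10548 protein-coding genes, was -0.130 in siNT vehicle replicate 1 and -0.161 in siMLK4 vehicle replicate 3, and between -0.071 and 0.123 in the other 10. Those 2 libraries held the highest EIF4EBP1 values of their groups. With the slope as a covariate, an alternative chosen after the values were seen, the fold changes of EIF3J between siRNAs kept their calls, and 2 interactions were called at adjusted p under 0.05, those of EIF3E (-0.43 ± 0.12; limma adjusted p = 0.0355) and EIF4EBP1, given above. The part of this slope in the other differences was not tested.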

How the data were processed

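RNA of HCC1806 cells was sequenced as poly(A)-selected libraries. The authors trimmed reads with Trimmomatic 0.39, aligned them with HISAT2 to GRCh38 per their methods (the labels list hg19), counted them per gene by strand with HTSeq 0.6.0 and transformed them with DESeq2 1.26.0. The deposited values are on a log2 scale with stabilized variance. Inverting the transformation gave whole reads, within 0.05, for 100.0% of values. Values were fitted with limma 3.58.1 (R 4.3.3; lmFit and eBayes with a variance trend) over all 12 libraries and 4 groups, without a replicate block, with Benjamini-Hochberg adjustment of p-values across 17013 genes. Fold changes of genes with few reads are understated on this scale. In simulated data 89.5% of 200 genes changed 2-fold were recovered (doxorubicin in siNT), with 0 false calls. For the interaction 82% of 100 such genes were recovered, also with 0 false calls. The simulation gave every gene the same dispersion, changed only well-expressed genes and had no library-wide shifts such as the slope on transcript length. These rates may therefore not hold for these libraries. Replicate libraries differed by more than counting noise (chi-square per degree of freedom from 7.19 to 67.25).

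Values by library are given for MAP3K21, EIF3J, members past the study thresholds in any of 5 comparisons, and in each complex the member with the smallest adjusted p for doxorubicin in siNT. Members and lists were chosen with earlier results of these data known. Same-numbered libraries deviated together in siNT vehicle and doxorubicin (r = 0.46, 0.11 and 0.20) and in the doxorubicin groups (0.19, 0.52 and 0.56). In the other pairs the signs were mixed. For replicates 1, 2 and 3, r was -0.08, 0.18 and 0.34 between siMLK4 vehicle and doxorubicin, and -0.72, 0.32 and -0.52 between the vehicle groups. Counting is uncertain for 12 members that share over 10% of sequence or exon bases with other genes: EIF1B, EIF2S2, EIF2S3, EIF3C, EIF3CL, EIF3L, EIF4A1, EIF4B, EIF4E, EIF5A, EIF5AL1 and EIF6. Transcript lengths, 3′ untranslated regions and sites come from the Ensembl canonical transcripts of GENCODE release 44, and siRNA sequences from the study's list.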

Additional observations from a re-analysis of the deposited data

How the results depend on the processing

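The siRNA differences of EIF3J and MAP3K21 kept their direction and their call under every alternative run, with EIF3J between -2.33 and -2.20 in vehicle and between -2.47 and -2.32 with doxorubicin when libraries were left out 1 at a time, and MAP3K21 between -2.33 and -2.20 and between -2.47 and -2.27. Counts of members moved more. Scaled to library totals, 18 members passed adjusted p under 0.05 for doxorubicin in siMLK4, 9 for siMLK4 against siNT in vehicle and 11 with doxorubicin, and 1 passed the study thresholds in each siRNA comparison. Upper-quartile scaling gave 10 and 1 in vehicle, and fitting only the groups compared gave 8 and 1 in vehicle and 26 at adjusted p under 0.05 with doxorubicin. With the transcript-length slope as a covariate the counts at adjusted p under 0.05 were 27 in vehicle, 28 with doxorubicin and 2 for the interaction (EIF3E and EIF4EBP1), and 1 passed the study thresholds with doxorubicin. Leaving out single libraries gave 5 to 8 members at the study thresholds for doxorubicin in siNT, 6 to 8 in siMLK4, 1 to 4 and 1 to 3 for the siRNA comparisons in vehicle and with doxorubicin, and 0 for the interaction. At adjusted p under 0.05 the ranges were 21 to 29, 20 to 29, 11 to 17, 8 to 21 and 0. The count for siRNAs with doxorubicin was 8 without siNT doxorubicin replicate 3, siMLK4 doxorubicin replicate 1 or siMLK4 doxorubicin replicate 2, and 10 without siNT doxorubicin replicate 1. At the study thresholds in vehicle it was 1 without siNT vehicle replicate 1 or siMLK4 vehicle replicate 1 and 4 without siMLK4 vehicle replicate 3, and with doxorubicin 1 without siNT doxorubicin replicate 3, siMLK4 doxorubicin replicate 1 or siMLK4 doxorubicin replicate 2. The doxorubicin response of EIF3J in siNT was -0.08 with library totals, -0.19 with upper-quartile scaling and -0.32 with only the groups compared, none of them called, and -0.39 to -0.24 without single libraries, where 5 of the 12 omissions lost the call (siNT vehicle replicates 1 and 2, siNT doxorubicin replicates 1 and 2 and siMLK4 doxorubicin replicate 1). In siMLK4 it was -0.26 with library totals, not called, and -0.53 to -0.37 without single libraries. The interaction of EIF3J was -0.21 to -0.05. The cause of these shifts was not tested. With the replicate number as a block, 7, 7, 2 and 2 members passed the study thresholds and 28, 27, 16 and 15 adjusted p under 0.05, in the order above, and the block changed 6 calls of single members: it lost the siRNA differences of EIF3A and EIF3H with doxorubicin (limma adjusted p = 0.058 and 0.063) and of EIF4G2 in vehicle (0.059) and the doxorubicin response of EIF2AK1 in siMLK4 (0.056), and added EIF1B with doxorubicin in siNT (0.013) and EIF4EBP1 between siRNAs in vehicle (0.046). Without the 12 members that share sequence or exons, 20, 21, 13, 14 and 0 members passed adjusted p under 0.05. EIF2A, called lower with doxorubicin in siNT at -0.23, stood at 0.01 with library totals, and no other called member changed sign under the alternatives run. Few reads limit EIF3CL, EIF4A1, EIF4E3 and EIF5AL1.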
